A study of Mus musculus with 3 samples.

Results

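The immediate early and stress response genes examined here are Ier3, Dusp1, Jun, Junb, Fos, Fosl1, Atf3, Egr1 and Ier2. They were taken by name from the deposited count table, and all 9 members were found among its 50507 genes. The table comes from a study of chromatin regulators in mouse embryonic fibroblasts (MEFs) on their way to pluripotency, profiled by CEL-Seq2, which reads the 3′ end of a transcript and removes amplified copies by a molecular barcode. The 3 samples of the series are sequenced pools, 1 per replicate, and the condition of each library inside a pool was read from its column name.

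All cells were BL6 MEFs that carried a lentiviral, doxycycline-inducible OSKM cassette (Oct4, Sox2, Klf4 and c-Myc) together with the reverse transactivator rtTA. The time course (Day00 to Day06) used cells that were re-plated but received no siRNA. The nt libraries received a non-targeting siRNA and the Mock libraries went through transfection without a gene-specific siRNA. Libraries of 33 further conditions received 40 nM of 3 pooled siRNAs against 1 gene each, and RNA of all transfected cells was taken on day 6. Reprogramming medium held LIF, ascorbic acid at 50 ug/mL, an Alk5 inhibitor at 0.25 uM, the GSK3 inhibitor chiron at 3 uM and doxycycline at 2 ug/mL, so that every day after Day00 differs from Day00 by the factors and the medium at once. Bulk RNA cannot tell fewer expressing cells from less RNA per cell.

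Immediate early genes are transcribed within minutes of a mitogen, cytokine or stress signal, without new protein synthesis, and their transcripts are short-lived. Fos, Fosl1, Jun and Junb encode subunits of the AP-1 transcription factor, and Atf3 is a stress-induced partner of the same leucine zipper class. Egr1 is a zinc finger factor downstream of ERK and serum response factor, Ier2 is a growth factor-induced nuclear protein, Ier3 modulates survival and ERK signalling, and Dusp1 is a phosphatase that switches off MAP kinases. AP-1 factors are abundant in fibroblasts and hold open part of the fibroblast enhancer repertoire, which is why their course during reprogramming is of interest.

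Of 129 libraries, the 127 that also appear in the deposited log2 table were used. Their total counts lay between 29656 and 235292 (median 73279), and 1 count at the median depth is worth 13.6 CPM. Levels are given as CPM, the count scaled by the TMM-adjusted total of the 3013 genes that passed the low-count filter, for 3 libraries per condition, 5 for Mock and 2 for siMtf1. Mitochondrial transcripts made up 10.8% to 31.4% of counts. All 10 fibroblast markers searched (collagens, Thy1, Vim, Postn, Twist1, Lum and Dcn) were detected in each condition of the time course and in nt and Mock. The siRNA targets read here, Wdr5, Bard1 and Brca1, were too rare to check their labels, and other targets were not read. Per the study, RT-qPCR at day 3 found high knockdown of these mRNAs. Wdr5 had 7 counts in siWdr5 and 9 in nt, Bard1 had 0 in siBard1 and 2 in nt, and Brca1 had 4 in siBrca1 and 2 in nt.

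The members were lowly covered, with 2573 counts in all, or 0.0244% of the counts in these libraries. Ier3 (792 counts) and Jun (540) supplied 51.8% of them and were the only 2 members that passed the low-count filter. Fosl1 had 331 counts, Dusp1 232, Junb 216, Egr1 188, Ier2 183 and Fos 64, and these 6 were tested in a second fit of the 12005 genes with at least 30 counts. Atf3, with 27 counts, was not tested. Differences were tested with an edgeR quasi-likelihood fit with condition and replicate terms, and a gene was called at a Benjamini-Hochberg adjusted p under 0.05 over all genes of its fit. Intervals given below are 95% intervals that cover counting error only. A group at 0 is set to a floor of 3 counts over its libraries, and a fold against that floor carries no error of the higher group, so the lower 95% limit of the count ratio is given beside it.

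The genes lie on GRCm38 at chromosome 17, 35821684 to 35822923 (Ier3, plus strand), chromosome 17, 26505590 to 26562128 (Dusp1, minus strand), chromosome 4, 95049034 to 95052222 (Jun, minus strand) and chromosome 8, 84974484 to 84978718 (Junb, minus strand). Fos lies at chromosome 12, 85473890 to 85477273 (plus strand), Fosl1 at chromosome 19, 5447547 to 5455946 (plus strand), Atf3 at chromosome 1, 191170296 to 191218039 (minus strand) and Ier2 at chromosome 8, 84661331 to 84662852 (minus strand). In the GENCODE vM21 annotation exons of Dusp1, Jun, Junb and Fosl1 overlap exons of Ergic1, Junos, Prdx2 and Ccdc85b on the opposite strand, and reads of such pairs can be told apart only if strand was used in counting, which is not given in the sources used here.

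Summed over the 9 members, the mean level of each day from Day04 was below that of each earlier day. The sum was 953 ± 55.3 CPM (SD, n = 3) on Day00, 496 ± 70.7 on Day01, 514 ± 143 on Day02 and 1030 ± 315 on Day03. It was 322 ± 71.9 on Day04, 268 ± 34.5 on Day05 and 366 ± 107 on Day06. Over Day00 to Day03 the pooled sum was 761 CPM (695 counts) and over Day04 to Day06 it was 310 CPM (280 counts), a count ratio of 2.46 (interval 2.14 to 2.83). This split was not planned and lies at the fall that the same values show, so its interval describes the fall and does not test it. Ier3 alone gave 54.0% of the member counts before day 4, so the sum follows Ier3 and says little about the rarer members.

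**Figure D1:**
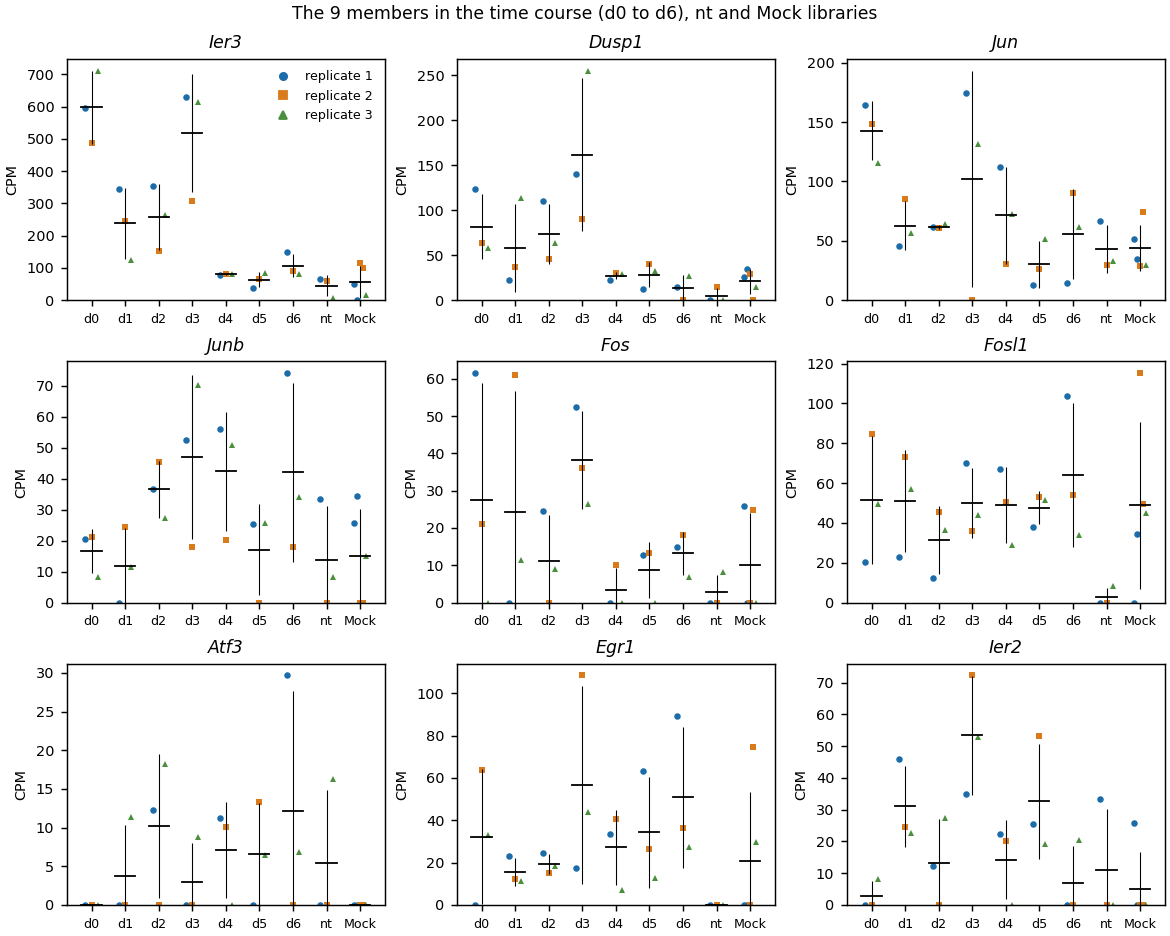
CPM of each member (y axis, linear, from 0) in each library of Day00 to Day06, nt and Mock (x axis). Symbols are libraries by replicate, horizontal bars are means and vertical lines are 1 SD, drawn from 0 up. The Day04 libraries of Ier3 and Dusp1 lie below all of their Day03 libraries, the Day00 and Day06 libraries of Fosl1 and Egr1 overlap, and the nt libraries of Fosl1 and Egr1 are at or near 0.

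Ier3, the modulator of survival and ERK signalling, changed most clearly. The Day00 libraries held 595, 487 and 712 CPM (replicates 1 to 3), the Day01 libraries 344, 244 and 125.3, the Day02 libraries 355, 152 and 264, and the Day03 libraries 630, 307 and 616. On Day04 the values were 78.5, 80.99 and 79.8 CPM, on Day05 38.1, 66.4 and 83.8, and on Day06 148, 90.4 and 81.8. Every library of Day04 to Day06 lay below every library of Day00 and of Day03, and the 3 libraries of Day04 were within 3 CPM of each other. The fitted log2 difference from Day00 was -1.48 ± 0.35 (SE) on Day01 (adjusted p = 0.00089), -1.23 ± 0.33 on Day02 (0.0038) and -0.21 ± 0.30 on Day03 (0.74). It was -2.93 ± 0.38 on Day04 (adjusted p = 2.1e-11), -3.16 ± 0.39 on Day05 (2.7e-12) and -2.57 ± 0.38 on Day06 (5.3e-09).

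By mean level the course of Ier3 was not a steady decline. The level fell on Day01, was not separable from Day00 on Day03, and fell within 1 day to Day04. A rise to Day03 from Day01 or Day02 was not tested by a fit. The lowest Day03 library lay inside the ranges of both days and the others lay above them. That last step, chosen for a test after the values were seen, had a log2 difference of -2.71 ± 0.38 (Day04 against Day03, adjusted p = 2.9e-09 by edgeR). In counts it was 26 against 123, a ratio of 0.147 (interval 0.0922 to 0.225).

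Dusp1, the MAP kinase phosphatase, fell at the same step. It had 123.2, 63.5 and 57.9 CPM on Day00, 22.9, 36.6 and 114 on Day01, 110, 45.5 and 63.8 on Day02, and 140, 90.3 and 255 on Day03. The values dropped to 22.4, 30.4 and 29.0 CPM on Day04, 12.7, 39.8 and 32.2 on Day05, and 14.8, 0 and 27.3 on Day06. The Day03 and Day04 libraries did not overlap, and Day03 was the highest day in replicates 1, 2 and 3. Dusp1 varied over the days (adjusted p = 1.6e-04) and was lower on Day04 than on Day03 by a log2 difference of -2.55 ± 0.61 (adjusted p = 0.0034). Both calls rest in part on the libraries of replicate 3, without which the adjusted p was 0.25 over the days and 0.51 for that step (log2 difference -2.05). Against Day00, the Day06 difference of -2.004 ± 0.80 was not called (adjusted p = 0.15), with 5 counts against 16 and a count ratio of 0.251 (interval 0.0720 to 0.718).

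Because Ier3 and Dusp1 fell between the same 2 days, the 250 bases before their RefSeq start sites (GRCm38.p6) are shown. The Ier3 stretch is chr17:35821463-35821712 on the plus strand and the Dusp1 stretch is chr17:26508473-26508722 on the minus strand, each written 5′ to 3′ on the strand of the gene. Capitals mark matches to a cAMP response element (CRE, TGACGTCA), an NF-kB site or a GC box (GGGCGG) on either strand.
Ier3: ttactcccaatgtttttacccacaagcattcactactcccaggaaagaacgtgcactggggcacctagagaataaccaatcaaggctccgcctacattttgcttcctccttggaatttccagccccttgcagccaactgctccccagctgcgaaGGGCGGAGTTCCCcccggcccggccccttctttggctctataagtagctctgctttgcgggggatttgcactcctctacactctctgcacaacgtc
Dusp1: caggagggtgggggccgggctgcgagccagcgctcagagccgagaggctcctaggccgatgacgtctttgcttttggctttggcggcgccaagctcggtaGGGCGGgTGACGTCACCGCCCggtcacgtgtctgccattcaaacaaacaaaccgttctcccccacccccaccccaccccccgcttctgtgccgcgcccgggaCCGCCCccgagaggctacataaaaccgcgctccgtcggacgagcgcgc

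The Dusp1 stretch holds a CRE from 143 to 136 bases before the start with a GC box on each side, and a further GC box from 48 to 43 bases before it. The Ier3 stretch holds a GC box from 96 to 91 bases before the start, which overlaps an NF-kB match from 92 to 84 bases before it. The 2 stretches share only the GC box. Of 27025 promoters of the same length, 1.62% hold a CRE, 7.86% an NF-kB match and 32.9% a GC box. Promoter entries existed for 6 members (Ier3, Dusp1, Jun, Junb, Fos and Atf3). A GC box was found in 5 of the 6, an NF-kB match in Ier3 and Fos, a CRE in Dusp1 and a TATA box (TATAAA, 13.0% of promoters) in Fos. An AP-1 motif (TGANTCA, 6.87% of promoters) and a CArG box (1.40%) were found in 0 of the 6. These matches describe letters in a window and not binding.

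**Figure D2:**
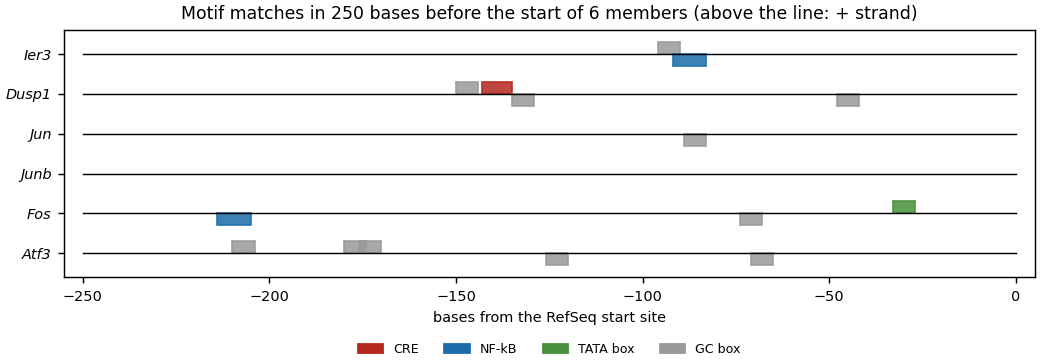
Matches to 4 motifs (coloured boxes, above the line for the plus strand of the gene and below it for the minus strand) in the 250 bases before the start of 6 members, with the distance from the start site in bases on the x axis. The CRE of Dusp1 lies between GC boxes, and Junb has no match.

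Among the AP-1 subunits, Jun was highest on Day00. It had 164, 148 and 116 CPM on Day00, 45.8, 85.5 and 56.9 on Day01, 61.2, 60.7 and 63.8 on Day02, and 175, 0 and 132 on Day03. The values were 112, 30.4 and 72.6 CPM on Day04, 12.7, 26.5 and 51.5 on Day05, and 14.8, 90.4 and 61.4 on Day06. Each library of Day01, Day02, Day05 and Day06 lay below each of Day00, and the Day03 libraries ran from 0 to above every Day00 value. Jun was called lower on Day05 (log2 difference -1.92 ± 0.56, adjusted p = 0.0044) and not on Day06 (-1.27 ± 0.54, adjusted p = 0.078), with an adjusted p of 0.052 for variation over all days. The Day05 call was lost without replicate 1 (-1.48, adjusted p = 0.090), and DESeq2 called Jun on Day06 (-1.46, adjusted p = 0.041) and over all days (adjusted p = 0.0099). Of the genes passing the filter, 31.9% were called on Day05.

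Of the other AP-1 subunits tested (Junb, Fos and Fosl1), 0 were called over the days by edgeR, DESeq2 or limma and 0 had an unadjusted p under 0.05 by edgeR, and whether their courses differ from that of Jun was not tested. Junb, which often opposes Jun, had 16.7 ± 7.27 CPM (SD, n = 3) on Day00, 47.0 ± 26.6 on Day03 and 42.1 ± 28.9 on Day06, from 3, 12 and 11 counts. Its Day06 difference was 1.44 ± 0.95 (log2, adjusted p = 0.51). Fos, the inducible partner of Jun, had 4 counts on Day00, 8 on Day03, 1 on Day04 and 3 on Day06. Over Day00 to Day03 against Day04 to Day06, the unplanned split used for the sum, the count ratio was 3.47 for Fos (interval 1.35 to 10.5) and 1.70 for Jun (interval 1.18 to 2.47). These intervals do not test a change. The mean of Fos was 38.3 ± 13.2 CPM on Day03 and 3.37 ± 5.84 on Day04, and the Day03 and Day04 libraries did not overlap. The Day04 difference of Fos from Day03 (-3.03 ± 1.16) was not called (adjusted p = 0.20 by edgeR, and 0.043 by limma on the deposited log2 values), and its count ratio was 0.0868 (interval 0.00196 to 0.647). Fosl1, the late and more stable member of the Fos family, showed no detectable change, with 51.6 ± 32.1 CPM on Day00 and 64.1 ± 35.9 on Day06 (log2 difference 0.14 ± 0.67, adjusted p = 0.99) and the lowest mean of the days, 31.4 ± 17.2, on Day02. Atf3 had 12 counts in the 21 libraries of the time course, 0 of them on Day00 and 3 on Day06, and a change was not detectable at this depth.

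Egr1 and Ier2 were low throughout. Egr1 had 0, 63.5 and 33.1 CPM on Day00, 17.5, 108 and 44.0 on Day03 and 89.0, 36.1 and 27.3 on Day06, so the ranges overlapped (Day06 against Day00 0.47 ± 0.80 on the log2 scale, adjusted p = 0.85). Ier2 had 1 count on Day00 and 12 on Day03, with 35.0, 72.3 and 52.8 CPM on Day03 against 0, 0 and 8.28 on Day00. The Day03 libraries of Ier2 lay above each Day00 library, but the difference (3.10 ± 1.13) had an adjusted p of 0.17. The Day04 libraries of Ier2 all lay below those of Day03, with 4 counts against 12. That count ratio was 0.231 (interval 0.0544 to 0.764), and Ier2 was not called at this step.

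By mean level, 5 of the 9 members (Dusp1, Junb, Fos, Egr1 and Ier2) were highest on Day03, 2 (Ier3 and Jun) on Day00 and 2 (Fosl1 and Atf3) on Day06. None of the members was called on Day03 against Day00, where 2 of 8 had an unadjusted p under 0.05 by edgeR and 0 were called by DESeq2 or limma, against 10.9% of genes passing the filter called. For Day01 to Day05 against Day00, the share among genes with at least 30 counts, the fit of 6 members, is not given here. The highest day is a description of means. With the 42 conditions ranked by mean level, the step between neighbours was larger than the pooled SD of the pair in 2 of 41 steps for Ier3, 2 of 41 for Dusp1 and 0 of 41 for each other member.

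Set against all genes, 2 of the 8 tested members (Ier3 and Dusp1) varied over the days, where 42.5% of the genes passing the filter and 10.4% of the genes with at least 30 counts did. On Day06 against Day00 only Ier3 was called (22.2% and 4.94%), with 4 fitted differences up and 4 down and a median of -0.27 (log2) over the 8, against a median of 0.05 over the genes passing the filter. That split was not fixed, since without replicate 1 Fosl1 (-0.51) and Egr1 (-0.43) turned negative and Fos (0.64) positive, without replicate 3 Ier2 turned negative (-0.0038), and with RLE size factors Fosl1 did (-0.029). On Day04 against Day03, 2 members were called (11.9% and 2.35%), all 8 fitted differences were negative and their median was -1.54, against 0.01 over the genes passing the filter. Without replicate 3, Junb (0.039) and Fosl1 (0.094) turned positive. Ier3 was the only member called on Day01 (9.89% of genes passing the filter), Day02 (11.6%) and Day04 (18.7%), each against Day00.

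Ranges of the fibroblast markers and of the mitochondrial share overlapped between Day03 and Day04, and 3 of 10 heat shock genes fell. The summed level of the 10 fibroblast markers was 2920 to 3704 CPM on Day03 and 2885 to 3521 on Day04. The mitochondrial share was 19.7% to 22.6% on Day03 and 19.9% to 20.8% on Day04, and the 10 heat shock genes summed to 6906 to 7345 and to 6813 to 7416 CPM. The heat shock genes called lower on Day04 than on Day03 were Hspa1b, Hspb1 and Hsph1, and their part in the fall of Ier3 and Dusp1 was not tested. Macrophage markers were 3 of 7 detected on both days (54.2 to 122 and 33.6 to 111 CPM). Cd68, Csf1r and C1qa were at 0 on both days, Fcer1g was at 0 on Day03 and Ptprc was at 0 on Day04. Neural markers, mainly Tubb3 and Stmn2, had 35.0 to 235 CPM on Day03 and 202 to 254 on Day04, with Sox10 at 0 on Day03, and endothelial and keratinocyte markers had 2 counts or fewer on both days. The 10 epithelial and early pluripotency markers summed to 18.1 to 52.5 CPM on Day03 and 20.2 to 56.1 on Day04, with Lin28a, Sall4, Tdgf1 and Esrrb at 0 on both days. From Day00 to Day06 the ranges of the fibroblast, pluripotency, macrophage and neural sums did not overlap, and those of the heat shock, endothelial and keratinocyte sums did. The fibroblast sum was 5686 to 7856 CPM on Day00 and 2603 to 3442 on Day06. The epithelial and early pluripotency sum was 8.28 to 21.2 CPM on Day00 and 116 to 271 on Day06. Macrophage markers had 132 to 226 CPM on Day00 (3 of 7 detected) and 18.1 to 89.0 on Day06 (2 of 7). Neural markers had 82.8 to 191 CPM on Day00 and 198 to 312 on Day06, and heat shock genes 6246 to 7184 and 6929 to 7710. The mitochondrial share was 13.8% to 15.7% on Day00 and 16.0% to 16.6% on Day06. On Day01 the fibroblast sum was 3143 to 3848 CPM, the macrophage sum 45.5 to 68.8 CPM and the mitochondrial share 10.8% to 12.5%, all below Day00. The ranges of the other sums overlapped between Day00 and Day01. The part of these values in the Day01 and Day06 differences was not tested.

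**Figure D3:**
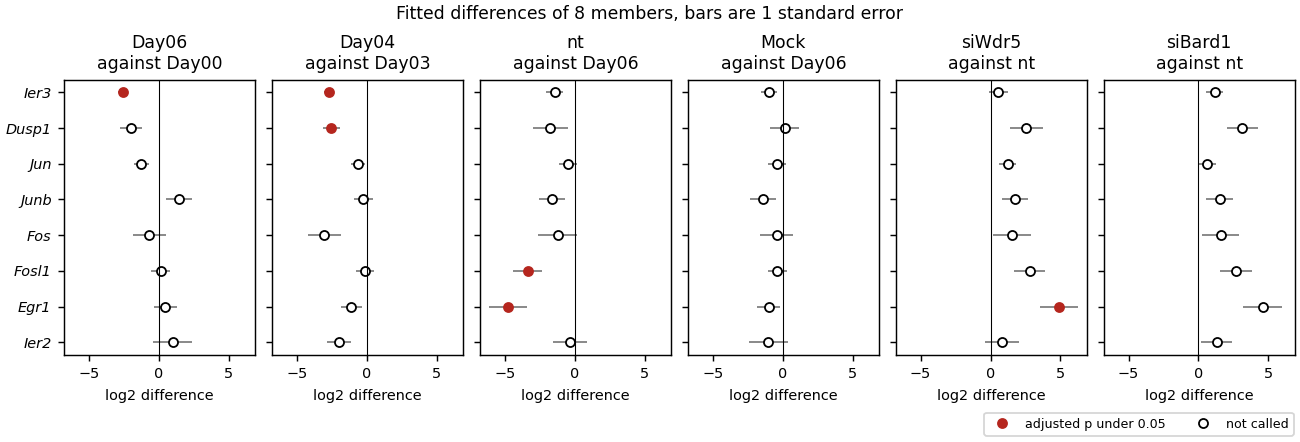
Fitted log2 differences (x axis) of the 8 tested members, with bars of 1 standard error, in 6 comparisons. Filled points had an adjusted p under 0.05. Ier3 and Dusp1 are called at the step from Day03 to Day04, and Fosl1 is called in nt against Day06 and Egr1 in nt against Day06 and siWdr5 against nt.

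The nt libraries were compared with untransfected Day06 cells. Transfection and plating differ together between these groups. Per the study, transfected cells also spent a further day in the transfection mix before reprogramming began. The parts of siRNA, transfection, plating and added time cannot be told apart. Ier3 had 66.6, 59.8 and 8.17 CPM in nt and 148, 90.4 and 81.8 on Day06, and the libraries did not overlap. The log2 difference was -1.43 ± 0.61 (adjusted p = 0.065, and 0.041 with RLE size factors), and the count ratio was 0.360 (interval 0.149 to 0.789). In the 5 Mock libraries Ier3 ran from 0 to 115 CPM, with a median of 51.6. Jun had 66.6, 29.9 and 32.7 CPM in nt, which overlapped Day06 (log2 difference -0.45 ± 0.65, adjusted p = 0.64).

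Fosl1 and Egr1 were called lower in nt than on Day06, and both calls rest on nt libraries that hold 1 count and 0 counts. Fosl1 had 0, 0 and 8.17 CPM in nt against 104, 54.2 and 34.1 on Day06 (-3.37 ± 1.02, adjusted p = 0.027), a count ratio of 0.0720 (interval 0.00171 to 0.468). Egr1 had 12 counts on Day06 and 0 in each nt library (adjusted p = 0.017). Set against the 3 counts that 0 allows over the 3 nt libraries together, Day06 was at least 3.70-fold higher (lower limit of the count ratio 2.57). Neither call held when any 1 replicate was left out (adjusted p from 0.056 to 0.31 for Fosl1 and from 0.083 to 0.21 for Egr1) or by DESeq2 (0.071 and 0.052). The fitted log2 differences without a replicate were -5.21 to -2.67 for Fosl1 and -5.01 to -4.38 for Egr1, beside -4.78 for Egr1 with all libraries, and those of Egr1 depend on the prior count since nt is at 0. The Mock libraries ranged more widely, and their ranges overlapped those of nt and of Day06. Fosl1 had 10 counts in Mock (0 to 115 CPM, median 44.8) and Egr1 had 5 (0 to 74.5 CPM, median 0). Against Day06, Mock differed by -0.37 ± 0.66 for Fosl1 (adjusted p = 0.83) and by -0.995 ± 0.83 for Egr1 (adjusted p = 0.58).

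In this comparison 2 of the 8 tested members were called, where 26.6% of the genes passing the filter and 4.73% of those with at least 30 counts were, and all 8 fitted differences were negative with a median of -1.53 (log2) against -0.01 over the genes passing the filter. Ier2 turned positive without replicate 3 (2.96) and by limma (0.098), and Dusp1 did with Mock in place of nt (0.15). Between Mock and nt themselves 0 of the 8 members were called by edgeR, with 2 (Fosl1 and Egr1) at an unadjusted p under 0.05, and 0 by DESeq2 or limma, where 1.56% and 0.208% of genes were called in the 2 fits. Heat shock genes summed to 11965 to 14122 CPM in nt and 6929 to 7710 on Day06. The sum does not stand for each of the 10 genes. Hsp90aa1 was called higher in nt and Hsp90ab1 lower, and the median over the 10 was -0.31 (log2). The mitochondrial share was 22.8% to 26.3% in nt against 16.0% to 16.6% on Day06. The part of the heat shock genes or of the mitochondrial share in these differences was not tested.

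Among the 33 siRNA conditions, compared with nt to ask which chromatin factors alter these genes, Ier3 had a median below every library of the early days. Its 98 siRNA libraries ran from 0 to 168 CPM with a median of 41.8, where the 12 libraries of Day00 to Day03 ran from 125.3 to 712. The highest mean was in siBrca1 (98.9 ± 35.1 CPM, n = 3) and the lowest in siHdac1 (5.41 ± 9.38), and variation among siRNAs was not called (adjusted p = 0.31). Jun ran from 0 to 141 CPM with a median of 48.8, with the highest mean in siCdk1 (117 ± 34.5) and the lowest in siPou5f1 (15.0 ± 13.0), and was not called either (adjusted p = 0.16 by edgeR, and 0.043 by DESeq2). siCdk1 targets the mitotic kinase, and siPou5f1 targets Oct4, 1 of the 4 reprogramming factors.

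**Figure D4:**
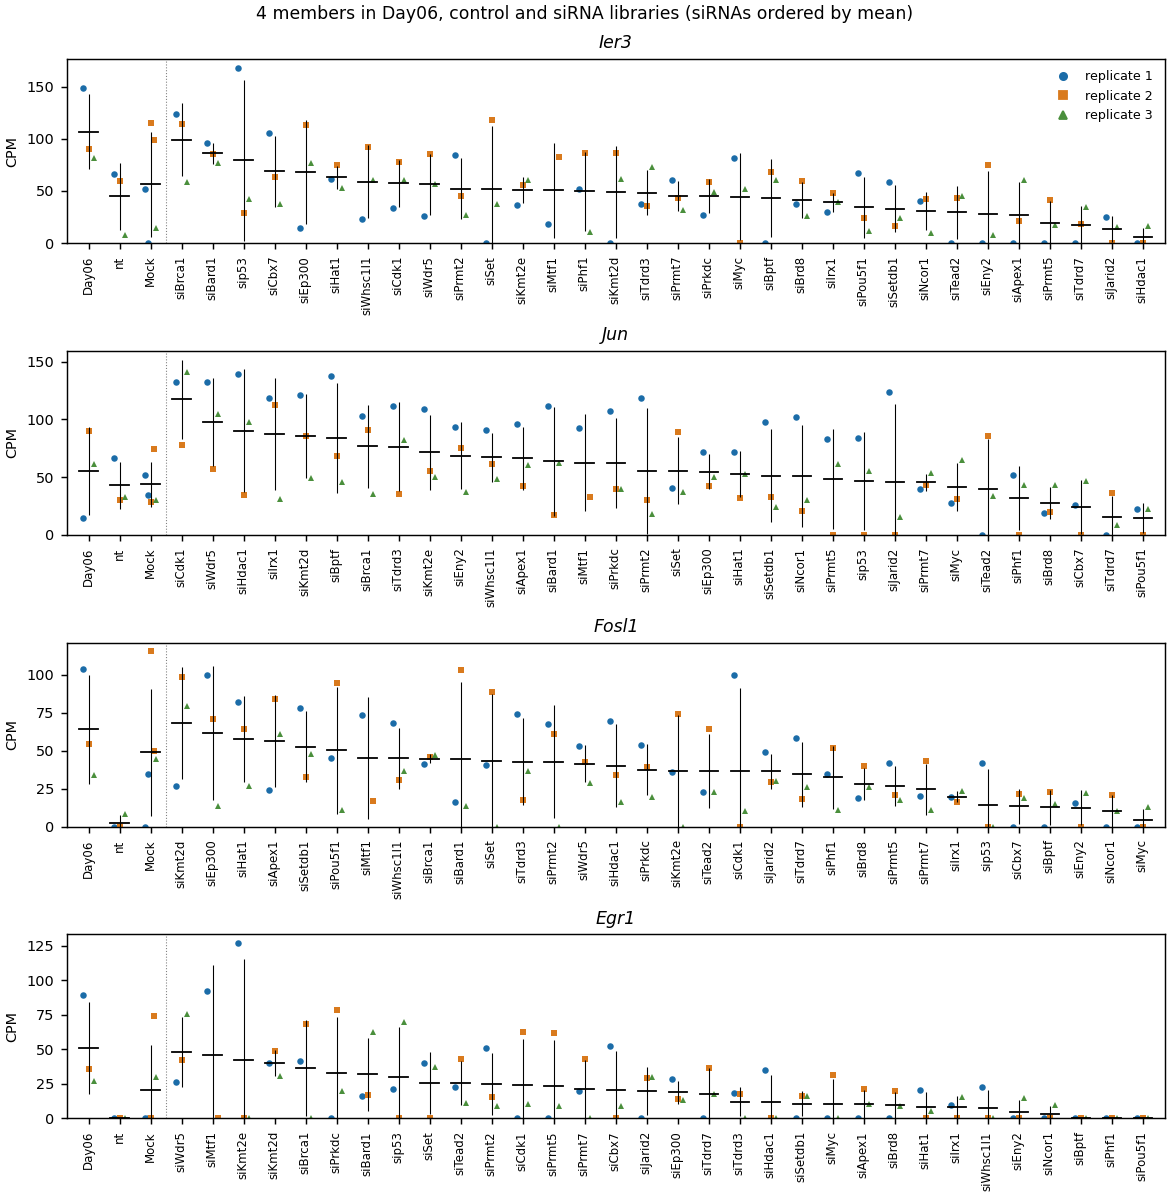
CPM (y axis, linear, from 0) of Ier3, Jun, Fosl1 and Egr1 in each library of Day06, nt, Mock and 32 siRNA conditions, which are ordered by their mean (x axis). Horizontal bars are means, vertical lines are 1 SD drawn from 0 up, and symbols mark the replicate. The libraries of most neighbouring conditions overlap, and nt is at or near 0 for Fosl1 and Egr1.

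The rarer members varied by a few counts per condition. The highest and lowest siRNA means were in siBard1 (51.9 ± 24.5 CPM) and in siBptf, siHdac1 and siSet (0 counts each) for Dusp1, in siBptf (54.5 ± 17.8) and siTdrd7 (0 counts) for Junb, and in siKmt2d (68.2 ± 37.0) and siMyc (4.34 ± 7.52) for Fosl1. For Ier2 the highest siRNA mean was in siBrd8 (50.3 ± 39.2 CPM). Fos had 34 counts in 98 libraries, 7 of them in siEp300 (6 of these in 1 library), and was at 0 in 16 of 33 conditions. Atf3 had 13 counts and was at 0 in 22 of 33 conditions, with the highest mean, 17.8 ± 30.9 CPM, from 2 counts in siPrkdc. Egr1 was at 0 in siBptf, siPhf1 and siPou5f1 and highest in siWdr5.

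In siWdr5, which targets a core subunit of the MLL histone methyltransferase complexes, Egr1 had 26.4, 42.6 and 75.9 CPM (13 counts), all above the 3 nt libraries at 0. It was the single member called (adjusted p = 0.0096, at least 4.30-fold higher against the floor of nt, with a lower limit of 3.02 for the count ratio). The call was lost without replicate 2 (adjusted p = 0.063) or replicate 3 (0.43), with the Mock libraries added to nt (0.080) and by limma (0.18). The fitted log2 difference was 4.90 with all libraries, 5.15 and 3.999 without those replicates, 2.07 with Mock added and 1.92 by limma. The values of 4.90, 5.15 and 3.999 depend on the prior count since nt is at 0, and their distance from 2.07 is not a measured fall. Against the 5 counts of Mock the ratio was 2.17 (interval 0.726 to 7.77). Jun had 132, 56.9 and 104 CPM in siWdr5, with 56.9 inside the nt range, and differed from nt by 1.22 ± 0.59 (adjusted p = 0.11). All 8 fitted differences of siWdr5 from nt were positive with a median of 1.62 (log2) against 0.00 over the genes passing the filter. Ier3 turned negative without replicate 3 (-0.16) and Ier2 without replicate 2 (-0.89). Against Mock, the count ratio of siWdr5 was 0.835 for Fosl1 (interval 0.312 to 2.23) and 1.06 for Ier3 (interval 0.448 to 2.59). It was 2.32 for Jun (interval 1.05 to 5.64), 3.06 for Junb (0.808 to 17.1) and 3.34 for Ier2 (0.330 to 164). For Dusp1 and Fos it was 1.67 (0.447 to 7.58 and 0.239 to 18.5). In siWdr5 against nt, 27.2% of the genes passing the filter were called, and 5.41% of the genes with at least 30 counts. The fibroblast marker sum was 4887 to 5676 CPM in siWdr5 and 1871 to 2831 in nt. Heat shock genes summed to 7167 to 8162 CPM in siWdr5 and 11965 to 14122 in nt, and epithelial and early pluripotency markers to 52.8 to 114 and 139 to 283. Of the 10 heat shock genes, 2 were called higher in siWdr5 and 1 lower, with a median of 0.01 (log2) over the 10. The mitochondrial share was 21.0% to 23.6% in siWdr5 and 22.8% to 26.3% in nt. The part of these sums in the differences was not tested.

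In siBard1 and siBrca1, whose targets form a ubiquitin ligase of the DNA damage response, 0 members were called by edgeR, with 3 and 2 at an unadjusted p under 0.05, and 0 by DESeq2 or limma. Of the genes in the 2 fits, 10.3% and 1.7% were called in siBard1 and 4.22% and 0.616% in siBrca1. Ier3 had 95.8, 85.7 and 76.4 CPM in siBard1, all above nt (1.15 ± 0.63, adjusted p = 0.25), and 123.98, 114 and 58.9 in siBrca1 (1.27 ± 0.67, adjusted p = 0.35). Dusp1 had 13 counts in siBard1 and 1 in nt, a count ratio of 12.2 (interval 1.84 to 520), and 4 in Mock, a ratio of 2.57 (interval 0.795 to 10.8). Egr1 had 11 counts in siBard1 (adjusted p = 0.054 against nt, and 0.046 with RLE size factors) and 5 in siBrca1. The fibroblast sum was 3033 to 3737 CPM in siBard1 and 2257 to 3554 in siBrca1, against 1871 to 2831 in nt. Heat shock genes summed to 9595 to 10811 CPM in siBard1 and 9069 to 10508 in siBrca1, against 11965 to 14122 in nt. The mitochondrial share was 19.6% to 25.8% in siBard1 and 16.7% to 19.7% in siBrca1, against 22.8% to 26.3% in nt. The part of these values in the differences was not tested.

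Over all 33 siRNAs, 1 of 264 member by siRNA tests was called (Egr1 in siWdr5), where 2.57% of such tests were called among the genes passing the filter and 0.441% among those with at least 30 counts. Egr1 was also the single member called for variation among the siRNAs and nt together (adjusted p = 0.045, and 0.19 by DESeq2, which called Jun in its place), where 44.8% and 11.3% of genes in the 2 fits were called. That call was also lost without replicate 2 (adjusted p = 0.15) or replicate 3 (1.00), with nt and Mock together (0.13), with the siRNA and nt libraries alone in the fit (0.062), without the replicate block (0.15) and by limma (0.70). All these comparisons share the 3 nt libraries, and 213 of the 264 fitted differences were positive, including 33 of 33 for Fosl1 and 31 of 33 for Egr1, the 2 members with 1 count and 0 counts in nt. In siBptf, siPhf1 and siPou5f1 Egr1 was at 0 as in nt, so the signs of those fitted differences are not set by its counts. The 98 siRNA libraries had a pooled Fosl1 level of 34.2 CPM, a ratio of 8.51 to nt (interval 1.51 to 338) and of 0.717 to Mock (interval 0.383 to 1.51). For Egr1 the pooled level was 18.6 CPM, a ratio of 0.781 to Mock (interval 0.326 to 2.45). Summed over the 9 members, the siRNA libraries were at 1.92 times nt (interval 1.33 to 2.88) and 1.04 times Mock (interval 0.775 to 1.43).

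**Figure D5:**
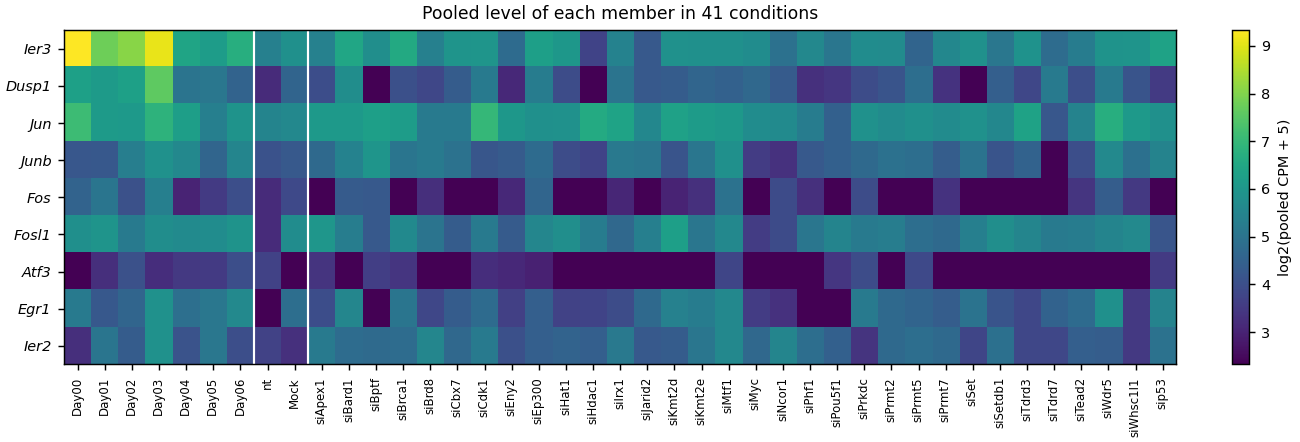
Pooled level of each member (rows) in 41 conditions (columns: 7 days, nt and Mock, and 32 siRNAs), coloured as log2 of pooled CPM plus 5. The brightest cells are Ier3 from Day00 to Day03, and Atf3 and Fos are dark in most siRNA conditions.

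Genes of the same pathways were read for context. The share of all genes called over the days was 42.5% among those passing the filter and 10.4% among those with at least 30 counts, and on Day06 against Day00 it was 22.2% and 4.94%. Of 23 other immediate early genes, 19 were tested (5 passed the filter) and 6 varied over the days, a share between these backgrounds. On Day06 against Day00, 4 of them fell and 0 rose. Ctgf, a YAP target, had 1 count on Day06 and 20 on Day00, a ratio of 0.0402 (interval 0.000971 to 0.252). Ptgs2, the inducible prostaglandin synthase, fell by 3.19 ± 0.81 on the log2 scale (adjusted p = 0.0012) and Sgk1, a serum-induced kinase, fell by 2.98 ± 0.67 (adjusted p = 1.7e-04). Klf6 was the other. On Day04 against Day03, Btg1, Klf6, Ptgs2 and Cyr61 fell, 4 of the 19 tested, beside 11.9% and 2.35% of all genes. The median over the list was -0.99 (log2) on Day06 against Day00.

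Of 14 AP-1 partners, 11 were tested. Cebpd rose to Day06 (1.36 ± 0.48, adjusted p = 0.028) and Jund was lower in nt than on Day06 (-1.15 ± 0.39, adjusted p = 0.018). Of 16 genes that respond to AP-1, 11 were tested (7 passed the filter) and 9 varied over the days, beside backgrounds of 42.5% and 10.4%. On Day06 against Day00, 1 rose and 3 fell, beside 22.2% and 4.94%. In that comparison Hbegf, a growth factor, fell by 3.05 ± 0.77 (adjusted p = 0.0033), while Ccnd1, the G1 cyclin, rose by 1.74 ± 0.34 (adjusted p = 1.2e-05). Spp1 also fell. In nt against Day06, 2 of the list were higher and 3 lower, beside 26.6% and 4.73% of all genes. The protease Mmp3 rose by 1.49 ± 0.43 (adjusted p = 0.0049), and Timp1 (-1.03 ± 0.35, adjusted p = 0.018) and Cd44 (-0.92 ± 0.26, adjusted p = 0.0038) fell. In siWdr5 against nt, which shares the nt libraries, 3 were higher and 1 lower, beside 27.2% and 5.41%. Mmp3 fell by 1.80 ± 0.45 (adjusted p = 9.8e-04), Timp1 rose by 1.42 ± 0.33 (3.7e-04) and Cd44 by 1.04 ± 0.25 (6.8e-04).

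Of 17 feedback inhibitors, 13 were tested. Dusp14, a further MAP kinase phosphatase, rose to Day06 (2.47 ± 0.55, adjusted p = 1.6e-04) and was lower in nt than on Day06 (-1.61 ± 0.47, adjusted p = 0.0056). Zfp36l1, an RNA-binding protein that speeds decay of AU-rich transcripts, fell to Day06 (-1.56 ± 0.42, adjusted p = 0.0026) and was higher in siWdr5 than in nt (2.61 ± 0.55, adjusted p = 7.0e-05). Of 23 kinases and factors upstream of the immediate early genes, all tested, 1 varied over the days. Nras rose to Day06 (1.23 ± 0.42, adjusted p = 0.020), and Map2k4 and Hras were lower in nt than on Day06 with log2 differences of -1.29 ± 0.50 and -1.19 ± 0.46 (adjusted p = 0.041 and 0.042).

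Of 11 genes of the integrated stress response, 10 were tested (5 passed the filter) and 3 varied over the days, between the backgrounds of 42.5% and 10.4%, and Slc7a11 and Ddit4 fell from Day03 to Day04. Slc7a11, the cystine transporter, had 47 counts on Day06 and 0 on Day00, at least 12.6-fold higher against the floor (lower limit of the count ratio 9.85). Of 10 heat shock genes, all tested (8 passed the filter), 8 varied over the days, beside 42.5% and 10.4% of all genes. On Day06 against Day00, 5 fell and 2 rose, beside 22.2% and 4.94%. The inducible Hspa1b had 2 counts against 34 (ratio 0.0473, interval 0.00551 to 0.185), Dnaja1 fell by 1.25 ± 0.34 (adjusted p = 0.0030) and Hspa5, the ER chaperone, by 1.12 ± 0.20 (adjusted p = 1.2e-06). Hsp90aa1 was higher in nt than on Day06 (1.35 ± 0.13, adjusted p = 3.5e-17) and lower in siWdr5 than in nt (-1.30 ± 0.13, adjusted p = 2.5e-16), and Hsp90ab1 moved the opposite way in both (-0.78 ± 0.18 and 0.64 ± 0.18, adjusted p = 2.8e-04 and 0.0032). Hspa5 was higher in siWdr5 than in nt (0.90 ± 0.20, adjusted p = 1.4e-04).

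Over 42 condition means of log2 CPM, with replicate differences removed, the genes whose pattern was most like Ier3 were Cryab, a small heat shock protein (Pearson's r 0.884), Fhl2, a LIM-domain cofactor (0.853), and Igfbp7, a secreted IGF-binding protein (0.852). Cryab went from 392 CPM over Day00 to Day03 to 87.3 over Day04 to Day06 and 27.2 in transfected libraries. For Jun the nearest were Ptp4a2 (0.707), Jak1 (0.644) and Phf6 (0.638). For the summed members they were Timp3 (0.871), Phldb2 (0.865) and Pdlim5 (0.863). Ier3 and Jun correlated with each other at 0.406. Conditions share the pool and, for siRNAs, the day, so these values describe likeness only.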

How the data were processed

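RNA of mouse embryonic fibroblasts was measured by CEL-Seq2 in 3 sequenced pools. The authors mapped reads to mm10 with Bowtie2, collapsed molecular barcodes with the CEL-Seq2 pipeline and matched transcripts to GENCODE vM13, which gave the deposited counts. The deposited log2 table of 10568 genes was made by the authors with a quality filter on libraries, normalization to log2 CPM and regression of the batch, so its values are relative levels. The labels give only the replicate, and each condition came from a column name.

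A library of siMtf1 (7981 counts) and a library of Mock (6403 counts), both in replicate 3, have no column in the log2 table and were left out. The single Mock column of replicate 3 in that table was matched to the library kept by its correlation (Pearson's r 0.961, against 0.0236 for the other). The 127 libraries kept had 29656 to 235292 counts.

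Counts were fitted with edgeR (4.0.16, R 4.3.3) by the quasi-likelihood test with TMM factors, condition and replicate terms, 83 residual degrees of freedom and Benjamini-Hochberg adjustment. Genes passing filterByExpr (minimum count 10) numbered 3013. Members below it came from a fit of the 12005 genes with at least 30 counts. The replicate was a block because same-numbered libraries share a sequenced pool. Per the study, transfections were made in triplicate and the time course has independent sequencing replicates. Whether each time course replicate was a separate culture is not given in the sources used here, and its spread may be technical in part. The fit was tested on simulated data. Alternatives used DESeq2 (1.42.0), limma (3.58.1) on the deposited log2 values, RLE size factors, other filters, libraries or controls, no block, and each replicate left out. Levels, intervals and figures used Python 3.11.15 with numpy 2.4.6, pandas 2.3.3, scipy 1.17.1 and matplotlib 3.10.9. Promoters came from RefSeq and positions from GENCODE vM21. Low counts limit precision, and intervals cover counting error only.

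Named genes were the 9 members, list genes called in a main comparison, and the 3 genes with the highest Pearson's r. The members and lists were chosen with earlier results of these data known. The step from Day03 to Day04 was chosen for a test after its values were seen. The pooling of Day00 to Day03 and of Day04 to Day06 was not planned. Values of 1 siRNA condition and of some list genes are not reported here, though they are in the counts over conditions and lists.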

Additional observations from a re-analysis of the deposited data

Results flagged for a closer look

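Ier2 had 25.8 CPM in 1 of the 5 Mock libraries, from 1 count, and 0 in the other 4. By Dixon's gap test at the 95% level this library stood apart from the rest of its group, but with 4 libraries tied at 0 any single count gives the largest gap the test allows, so the result follows from sparse counts. The 9 members were each tested in the Mock group, the only group of 4 to 10 libraries, and Ier2 was the single member with such a library. The usual chance of about 1 such group in 20 does not hold for counts tied at 0.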

How the results depend on the processing

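Alternatives to the comparisons of Day03 and Day05 with Day00 and of Day04 with Day03 were added after seeing the data. The calls of Ier3 on Day06 against Day00 and on Day04 against Day03 were made under every alternative run, with log2 differences of -2.80 to -2.13 and -2.95 to -2.53. Of the fitted log2 differences of the members under the alternatives, 330 kept their direction and their side of the threshold, 20 lost a call, 5 gained one and 13 turned sign.

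On Day06 against Day00, 2 members were called by DESeq2 and with RLE size factors (Ier3 and Jun) and 2 by limma (Ier3 and Dusp1), in place of 1. In nt against Day06, in place of 2, 1 was called with no filter (Egr1), 1 by limma (Fosl1), and 0 by DESeq2, with nt and Mock together or with Mock in place of nt, while RLE size factors gave 3 (Ier3 added). Variation among the siRNAs was called for 0 members with nt and Mock together, with the siRNA and nt libraries alone in the fit, or by limma. DESeq2 called 1, which was Jun and not Egr1. For siWdr5 against nt, and over all siRNAs against nt, 0 were called with nt and Mock together or by limma. RLE size factors gave 1 call in siBard1 (Egr1) and 3 over all siRNAs.

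Without the replicate block, 1 member was called in nt against Day06 (Egr1) and 0 among the siRNAs, and no other count of calls changed. Leaving out each replicate in turn gave 1 to 3 members over the days, 0 in nt against Day06, and 0 to 1 among the siRNAs, in siWdr5 and over all siRNAs. It turned the sign of rare members on Day06 against Day00, with ranges of -1.24 to 0.64 for Fos, -0.51 to 0.62 for Fosl1, -0.43 to 1.03 for Egr1 and -0.0038 to 1.16 for Ier2. It did so in nt against Day06 for Ier2 (-3.40 to 2.96), in siWdr5 for Ier3 (-0.16 to 1.31) and Ier2 (-0.89 to 3.58), and on Day04 against Day03 for Junb (-0.35 to 0.039) and Fosl1 (-0.29 to 0.094). Signs also turned for Fosl1 on Day06 against Day00 by DESeq2 (-0.023) and RLE (-0.029), and in nt against Day06 for Dusp1 with Mock (0.15) and Ier2 by limma (0.098). None of these differences was called, and the cause was not tested.

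RLE size factors moved the median over genes passing the filter by -0.16 (log2) on Day06 against Day00, -0.13 on Day04 against Day03, -0.14 in nt against Day06 and 0.17 in siWdr5 against nt. Mock lay at a median of -0.14 from Day06 under TMM. With 1 count worth 13.6 CPM at the median depth, counting error is wide for most values of the 7 members that failed the filter.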
